A study of Homo sapiens with 11 samples.

Results

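CISH, the SOCS genes and the core JAK-STAT genes are described here in T47D cells, a luminal line established from a human breast carcinoma. The 10 genes, of 19775 with a probe set of their own, were CISH, SOCS1, SOCS2, SOCS3, JAK1, JAK2, STAT3, STAT5A, STAT5B and PRLR. All 39 probe sets annotated to exactly 1 of them were taken, of 54613 tested on Affymetrix HG-U133 Plus 2 arrays. There were 7 probe sets for PRLR, 5 each for JAK1 and STAT5B, 4 each for SOCS1, SOCS3 and STAT3, 3 each for CISH, SOCS2 and JAK2, and 1 for STAT5A. The genes were chosen with results of these data known, among them the higher CISH values with E2-BSA. For E2-BSA or estradiol against arrays without hormone, member calls are therefore printed only as a description of the fit, without a p, and support nothing. Tests with a p are given for members in estradiol against E2-BSA, in the change of the E2-BSA response with an antagonist, and in single agents against control. These tests reuse the E2-BSA arrays, the control arrays or both, so their p-values and intervals are not free of the choice of genes.

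Total RNA was measured on 11 arrays in 9 groups. Before 3 h of treatment all cells were kept for 4 h in 10% serum stripped of steroids with charcoal. The untreated control and E2-BSA, estradiol conjugated to bovine serum albumin and used as a form that stays outside the cell, had 2 arrays each. Single arrays held free estradiol, ethanol at 0.1% (the vehicle of estradiol), BSA (the carrier), each antagonist (ICI or G15) alone, and E2-BSA combined with either. Estradiol, E2-BSA and BSA were used at 1 µM, and the antagonists ICI and G15 at 10 µM. G15 is known to block GPER, a membrane estrogen receptor coupled to G proteins, and the labels abbreviate ICI without further detail. Whether replicate arrays came from different cultures is not given, so p-values measure only the spread between these samples and the spread between them may be technical. All groups are 1 cell line, and in such bulk RNA fewer cells with a transcript and less transcript per cell cannot be told apart.

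Cytokine and hormone receptors such as the prolactin receptor carry no kinase of their own and signal through bound Janus kinases (JAKs), which phosphorylate STAT transcription factors. STAT dimers then enter the nucleus and switch on target genes, and in mammary epithelium the route from prolactin through JAK2 to STAT5 is known for its part in alveolar development and milk protein expression. CISH and the SOCS genes are themselves classical STAT targets, and their proteins bind the receptors or kinases and shut the pathway down, which makes their transcripts a feedback signal.

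The promoter of CISH is shown because it carries the STAT-type motif several times and CISH had the largest differences with E2-BSA among the members. The window runs from 250 bases before to 50 bases after the annotated start, at chr3:50611725-50612024 on the minus strand of GRCh38.p14, with sequence from RefSeq. It is printed 5′ to 3′ in the direction of the gene, and capitals mark each match to TTCNNNGAA, the palindrome that STAT dimers are known to bind.
CISH promoter: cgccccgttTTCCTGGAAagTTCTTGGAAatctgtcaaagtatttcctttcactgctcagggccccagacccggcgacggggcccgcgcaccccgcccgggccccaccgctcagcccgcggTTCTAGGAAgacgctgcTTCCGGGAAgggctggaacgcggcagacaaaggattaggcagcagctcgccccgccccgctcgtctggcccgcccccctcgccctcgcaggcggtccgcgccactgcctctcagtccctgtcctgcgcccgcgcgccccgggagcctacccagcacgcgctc

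The 4 matches begin 241, 230, 129 and 112 bases upstream of the start and fall into a pair at each end of the interval, with first bases 11 and 17 apart within the pairs. TTCNNNGAA reads the same on both strands, and 7.66% of 35114 promoter windows of this length held it at least once, while 0.0199% held it 4 times or more. The promoter table had windows for 9 of the 10 genes, 18 in all, and CISH had the 1 window with a match. The full estrogen response element (GGTCA, 3 bases of any kind, then its reverse complement), searched on both strands, occurred in 0.057% of all windows and in 0 of the 18. Its half-site GGTCA, which overlaps the full element, was searched on both strands as well. It occurred in 37.4% of all windows and 0 times in the CISH window. These matches describe the letters of the windows only.

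The arrays fell into 2 sets, and only control and E2-BSA had an array in each. A smaller set of 3 held estradiol and the first array each of control and E2-BSA, and a larger set held the remaining 8, separated by a first principal component with 71.0% of the variance. Every difference below was therefore taken within a set, or from a limma fit with the set as a block. The deposited values are centred per probe set and read as log2, so they give differences between arrays and no expression level. For the same reason the identity of the cells could not be checked against marker genes, and no level can be compared between genes.

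CISH, which encodes a cytokine-inducible SH2 protein that restrains STAT5 signalling, was higher with E2-BSA and with estradiol. Its leading probe set, 223377_x_at, is the one with the largest spread within the sets. In the smaller set its values were -0.14 on control 1, 0.88 on E2-BSA 1 and 0.64 on estradiol. In the larger set they were 1.16 on E2-BSA 2, 1.11 on E2-BSA with G15 and 0.20 on E2-BSA with ICI. The 5 arrays of that set without the conjugate read -0.06 (BSA), -0.12 (control 2), -0.26 (ethanol), -0.49 (G15) and -0.89 (ICI). No array without the hormone reached any array with it, in either set, for this probe set.

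**Figure D1:**
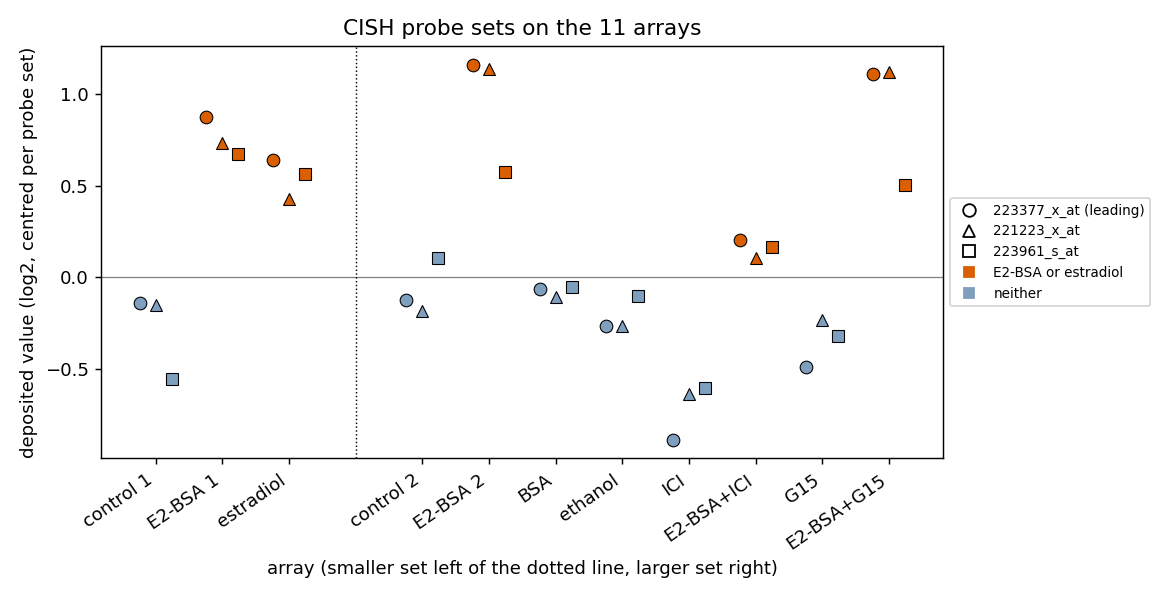
Deposited log2 values, centred per probe set, of the 3 CISH probe sets on each array; orange marks arrays with E2-BSA or estradiol and blue those with neither, and the dotted line divides the 2 array sets. On the leading probe set the values with hormone run from 0.20 to 1.16 and those without from -0.89 to -0.06.

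The order of the 8 larger-set arrays on this probe set, from the highest, was E2-BSA 2, E2-BSA with G15, E2-BSA with ICI, BSA, control 2, ethanol, G15 and ICI. The largest step was 0.91, from E2-BSA with G15 down to E2-BSA with ICI, and the next was 0.40, from G15 down to ICI. The standard error of a difference of 2 single arrays was 0.18, from a fit with 1 residual degree of freedom. Steps of 0.27, from E2-BSA with ICI down to BSA, and 0.22, from ethanol down to G15, exceeded that error by little. The step of 0.27 is the one that divides the arrays with E2-BSA from those without. The remaining steps, from 0.05 to 0.14, were below the error. None of these smaller steps orders its neighbours firmly.

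The 4 pairs of arrays that differ in E2-BSA alone all had CISH higher with it. On 223377_x_at the differences were 1.01 in the smaller set, 1.29 in the larger set without antagonist, 1.09 with ICI and 1.60 with G15. Their mean was 1.25 ± 0.26 (SD, n = 4), a 2.38-fold difference. The probe set 221223_x_at gave 0.88, 1.32, 0.74 and 1.35 in the same order, with a mean of 1.08 ± 0.31 (SD, n = 4). The third, 223961_s_at, gave 1.23, 0.47, 0.77 and 0.83, with a mean of 0.82 ± 0.32 (SD, n = 4). All 3 thus moved the same way in every pair, although they placed the highest difference in different pairs. The first pair of names ends in _x_at and the other in _s_at, which Affymetrix uses for probe sets that can match other transcripts too.

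The carrier and the vehicle did not show the difference seen with the conjugate. E2-BSA 2 exceeded BSA by 1.22 on 223377_x_at, while BSA exceeded control 2 by 0.06 and ethanol lay 0.14 below it (-0.14). In the blocked fit the 3 CISH probe sets were at -0.03 to 0.04 for BSA against control and at -0.21 to -0.02 for ethanol against control, with adjusted p of 0.906 or more in limma.

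Free estradiol and E2-BSA were compared at the same nominal 1 µM and 3 h, as the single pair of related compounds. They differ by the attached protein, and estradiol may also have brought its ethanol vehicle. Estradiol exceeded control 1 by 0.78, 0.58 and 1.12 on the 3 CISH probe sets. Estradiol minus E2-BSA was -0.30 on 223377_x_at (95% confidence interval -0.66 to 0.05; limma, adjusted p = 0.663). It was -0.42 on 221223_x_at (interval -0.80 to -0.03; adjusted p = 0.553) and 0.08 on 223961_s_at (interval -0.38 to 0.54; adjusted p = 0.969). The intervals on 223377_x_at and 223961_s_at include 0, and that on 221223_x_at lies below 0 before adjustment. Estradiol was measured once. Of the 39 probe sets, 0 were called in this comparison and 2 had an unadjusted p under 0.05, against 0% and 8.5% of all probe sets.

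ICI alone went with the lowest CISH values of the series. Relative to control it was at -0.83 ± 0.17 on 223377_x_at (SE; adjusted p = 0.431), -0.56 on 221223_x_at (adjusted p = 0.594) and -0.52 on 223961_s_at (adjusted p = 0.785). None of these passed in limma, where 0% of all probe sets were called for ICI, and each CISH probe set had an unadjusted p under 0.05 (0.000275, 0.00781 and 0.0309). G15 alone was at -0.43 ± 0.17 on 223377_x_at (adjusted p = 0.953), -0.16 on 221223_x_at and -0.24 on 223961_s_at.

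CISH was higher with E2-BSA beside either antagonist, and no change of that response passed the test. With ICI, the response minus that without was -0.06 ± 0.22 on 223377_x_at (SE; limma, adjusted p = 0.997; 95% confidence interval -0.53 to 0.41), with -0.36 and -0.08 on the other 2 probe sets. The value on E2-BSA with ICI still lay 0.96 below that on E2-BSA 2 (-0.96), as ICI alone lay 0.76 below control 2 (-0.76). With G15 the change of response was 0.45 ± 0.22 on 223377_x_at (adjusted p = 0.651; interval -0.02 to 0.92), 0.25 on 221223_x_at and -0.02 on 223961_s_at. Each combination was 1 array, so these intervals rest on the 1 residual degree of freedom of the replicated groups and on the prior. The prior, with 11.3 degrees of freedom, was pooled over all probe sets and carries most of the weight.

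**Figure D2:**
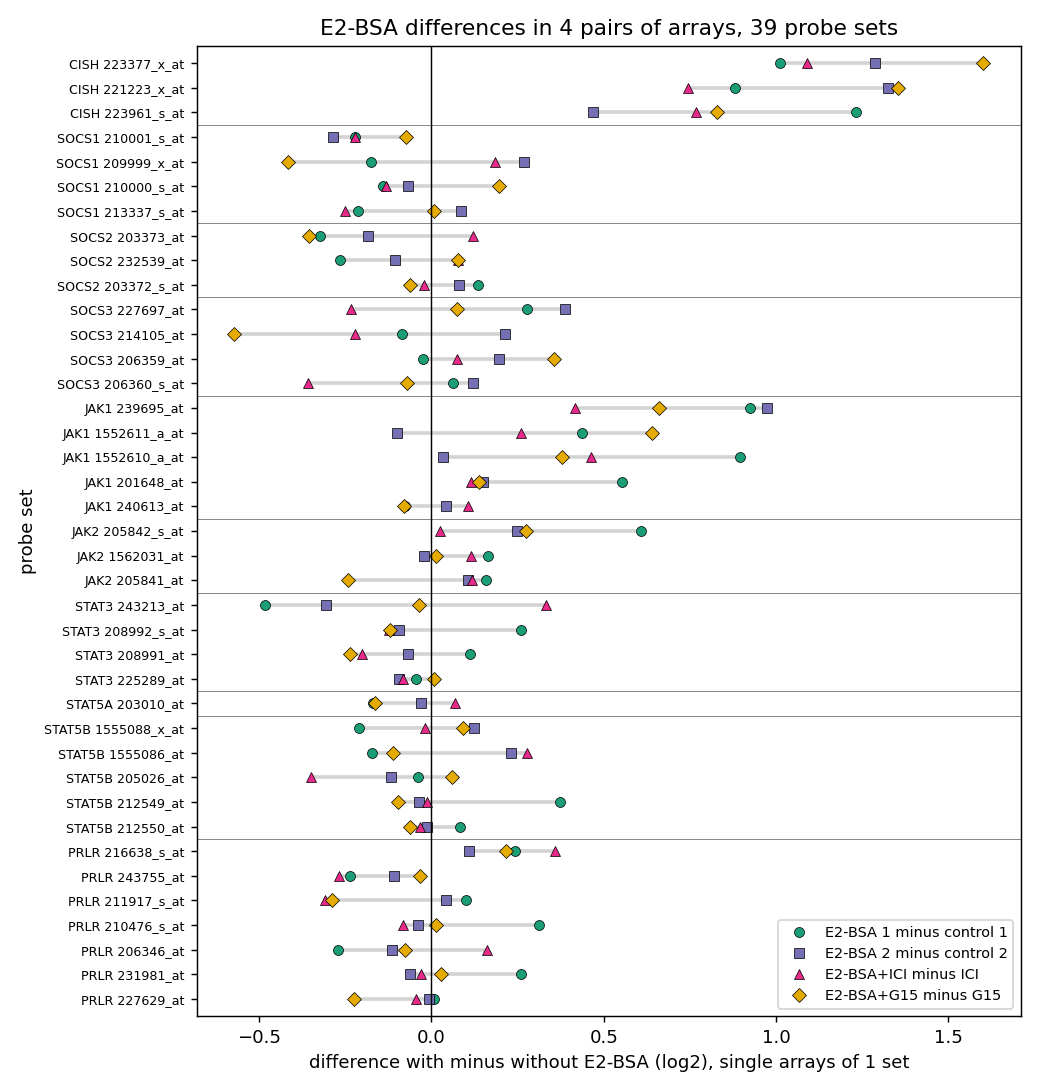
Log2 differences with minus without E2-BSA in 4 pairs of single arrays, each pair within 1 array set, for the 39 probe sets grouped by gene; grey bars span the 4 values. The 3 CISH probe sets lie between 0.47 and 1.60, JAK1 239695_at between 0.42 and 0.98, and most other probe sets scatter across 0.

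Over all members, 4 of 39 probe sets (the 3 of CISH and JAK1 239695_at) were called higher for E2-BSA against control at an adjusted p under 0.05 in the blocked limma fit, beside 0.381% of all probe sets, and 0 were called lower. Averaged over 3 backgrounds (none, ICI, G15), the same 4 were called higher, beside 0.189%. CISH and JAK1 were read off these contrasts, so the counts carry no independent weight. They were 0 in both comparisons without the set as a block and after quantile normalization. For the average over backgrounds the count was also 0 in the larger set alone and on leaving out any single array of control or E2-BSA, the G15 array, or the array that combined G15 and E2-BSA. It was 3 without ICI or E2-BSA with ICI. The median of the 39 was 0.07 against control and 0.00 over the backgrounds, beside 0.00 in both for all probe sets. At an unadjusted p under 0.05 there were 9 of 39 against control and 10 of 39 over the backgrounds, beside 9.68% and 8.45% of all probe sets. Without CISH and JAK1 there were 3 of 31 in each comparison, near the share of all probe sets. Called lower over the backgrounds were 0, beside 0.0549%. In all 4 pairs, 8 of the 39 were higher with E2-BSA and 2 lower, beside 8.22% and 8.42% of all probe sets.

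**Figure D3:**
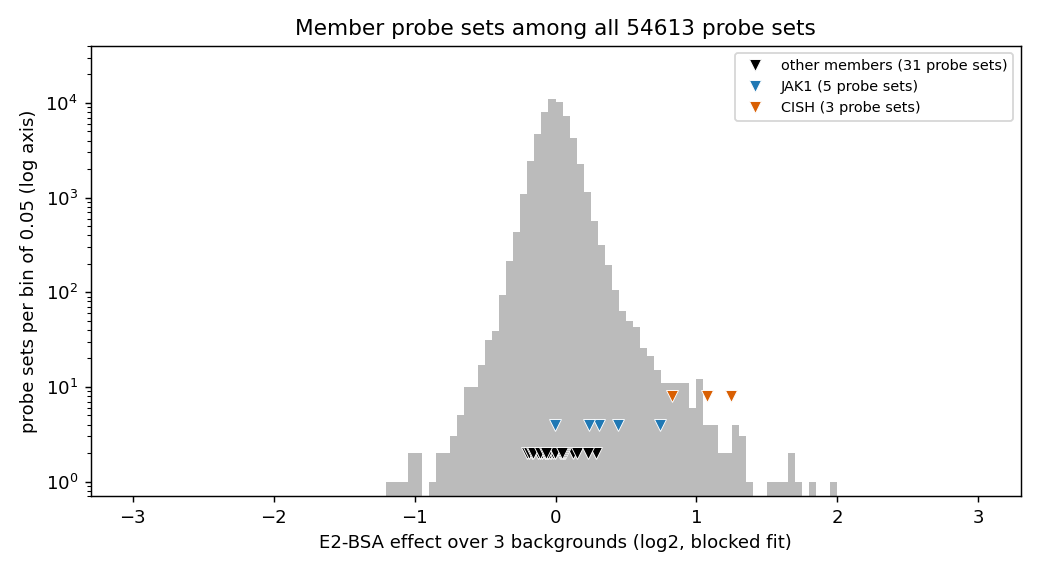
Number of probe sets per bin of log2 E2-BSA effect over 3 backgrounds in the blocked fit, on a log axis, for all 54613 probe sets, with triangles for the members (their height has no meaning). CISH at 0.82 to 1.25 and JAK1 239695_at at 0.74 stand to the right, and the 31 probe sets of the other 8 genes lie between -0.20 and 0.29.

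JAK1 encodes a kinase shared by interferon, interleukin and gp130 receptors, and its 5 probe sets did not behave alike. The leading one, 239695_at, read -0.66 on control 1, 0.26 on E2-BSA 1 and 0.47 on estradiol. In the larger set it read 0.40 on E2-BSA 2, 0.21 on E2-BSA with G15 and -0.19 on E2-BSA with ICI, against -0.26 on ethanol, -0.45 on G15, -0.52 on BSA, -0.58 on control 2 and -0.60 on ICI. The arrays with hormone again lay above all others of their set, by a narrow margin of 0.07 between E2-BSA with ICI and ethanol.

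The differences of 239695_at were 0.92 and 0.98 without antagonist in the smaller and larger set, 0.42 with ICI and 0.66 with G15, with a mean of 0.74 ± 0.26 (SD, n = 4). Estradiol exceeded control 1 by 1.13 and E2-BSA 1 by 0.21. For estradiol against control, 239695_at was the 1 member called higher, beside 0.15% of all probe sets, and none was called without the block or after quantile normalization. Estradiol minus E2-BSA was 0.19 in the blocked fit (95% confidence interval -0.15 to 0.53; limma, adjusted p = 0.819). The E2-BSA response with ICI minus that without was -0.53 ± 0.21 (SE; limma, adjusted p = 0.507), and with G15 it was -0.29 ± 0.21 (adjusted p = 0.844).

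**Figure D4:**
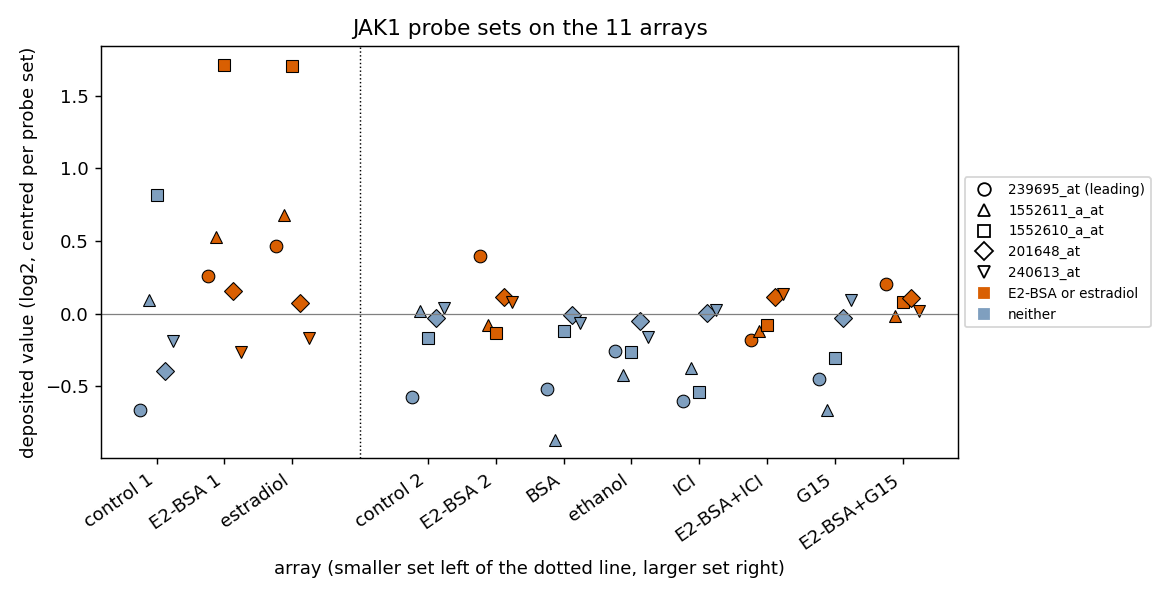
Deposited log2 values, centred per probe set, of the 5 JAK1 probe sets on each array; orange marks arrays with E2-BSA or estradiol, blue those with neither, and the dotted line divides the array sets. 239695_at and, over a smaller range, 201648_at separate the arrays by hormone in both sets. The probe set 1552610_a_at reaches 1.71 in the smaller set and stays at or below 0.08 in the larger.

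The other JAK1 probe sets differed from 239695_at in size, and some of them in where they moved. On 1552610_a_at the difference with E2-BSA was 0.90 in the smaller set and 0.03 in the larger, with 0.46 beside ICI and 0.38 beside G15. On 201648_at it was 0.55 in the smaller set and 0.11 to 0.15 in the 3 pairs of the larger. On this probe set too, the arrays with hormone lay above all others of their set. They read 0.11 to 0.12 in the larger set, against 0.003 or less without hormone. The probe set 240613_at gave -0.08 to 0.11 in the 4 pairs. On 1552611_a_at the values of BSA (-0.87), G15 (-0.66), ethanol (-0.42) and ICI (-0.38) all lay below control 2 (0.02). Its E2-BSA difference was 0.44 in the smaller set and -0.10 in the larger without antagonist, with 0.26 beside ICI and 0.64 beside G15. For BSA against control this probe set was at -0.75 ± 0.19 (SE; limma, adjusted p = 0.366). The mean over all 5 probe sets was 0.35 over the backgrounds, beside 0.74 for the leading one. Where in the gene each probe set lies was not analysed here.

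JAK2, the kinase that prolactin and growth hormone receptors use, was higher with E2-BSA in all 4 pairs on 1 of its 3 probe sets. On that leading probe set, 205842_s_at, the smaller set read 0.50 on control 1, 1.11 on E2-BSA 1 and 0.75 on estradiol. The larger set read -0.39 on control 2 and -0.15 on E2-BSA 2, -0.16 and -0.13 without and with E2-BSA beside ICI, and -0.14 and 0.13 beside G15. BSA read -0.38 and ethanol -0.14. The 4 differences ran from 0.03 to 0.61, and those of the other 2 probe sets from -0.24 to 0.16, with both signs on each of them.

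STAT3, the transcription factor of gp130 cytokines, was lower with E2-BSA in 3 of the 4 pairs on each of its 4 probe sets, though not in the same pairs. The means of the 4 pairs were small, from -0.12 to -0.02. On 243213_at, the leading one, E2-BSA read below control in the smaller set (0.00 against 0.48) and in the larger (-0.07 against 0.23), but above ICI in that pair (0.00 against -0.33). ICI alone was at -0.61 ± 0.16 against control (SE; limma, adjusted p = 0.542), ethanol at -0.47 and BSA at -0.46, so that control 2 was the highest of the 8 arrays of its set on this probe set. The E2-BSA response with ICI minus that without was 0.73 ± 0.21 (adjusted p = 0.259). The probe sets 208991_at and 208992_s_at had the 3 arrays with E2-BSA below the other 5 in the larger set, by differences of -0.24 to -0.07 within pairs, but E2-BSA 1 lay above control 1 on both. In the larger set, 3 of the 39 members had such an order downward and 5 upward, beside 3.63% and 3.16% of all probe sets.

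STAT5A and STAT5B encode the factors that prolactin and growth hormone activate and that CISH restrains. STAT5A, with 203010_at alone, read -0.25 on control 1, -0.42 on E2-BSA 1 and -0.31 on estradiol, and 0.00 on control 2, -0.03 on E2-BSA 2 and 0.06 on BSA. It was highest on ethanol, at 0.47, which was 0.43 ± 0.16 above control in the fit (SE; limma, adjusted p = 0.543). Over its 5 probe sets, STAT5B had differences with E2-BSA from -0.35 to 0.37, and each of the 5 had both signs among the 4 pairs. Neither transcript followed the pattern of CISH.

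The SOCS genes encode the closest relatives of CISH, with the same SH2 domain and SOCS box. SOCS2, which restrains growth hormone signalling, had differences from -0.36 to 0.13 over its 3 probe sets and 4 pairs. SOCS3, the inhibitor of gp130 and leptin receptor signalling, had differences from -0.57 to 0.39 over 4 probe sets. Its leading probe set, 227697_at, was higher with E2-BSA by 0.28 and 0.39 without antagonist, by 0.08 beside G15, and lower beside ICI (-0.23). The ICI change of that response was -0.57 ± 0.21 (SE; limma, adjusted p = 0.460). The estradiol array read 0.01 against 0.08 on control 1. No SOCS2 or SOCS3 probe set kept 1 sign in all 4 pairs.

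SOCS1, the inhibitor of interferon signalling through JAK1 and JAK2, stood out on the ethanol array. Its leading probe set, 210001_s_at, read 0.75 there and -0.26 to 0.11 on the other 10 arrays. Ethanol against control was 0.74 ± 0.16 (SE; limma, adjusted p = 0.115), which did not pass, and the other 3 SOCS1 probe sets read -0.15 to 0.01 on that array. IRF1, an interferon-responsive transcription factor on the list of genes known to respond to STATs, was called higher by 2.75 ± 0.16 in the same comparison (SE; limma, adjusted p = 3.72e-06). It read 2.80 on ethanol and -0.36 to 0.29 elsewhere, and it was singled out after its values were seen. The IRF1 call was lost without the block (2.85, limma, adjusted p over 0.99) and after quantile normalization (1.69, adjusted p = 0.0533). With E2-BSA, 210001_s_at was lower in all 4 pairs, by -0.28 to -0.07, while its other 3 probe sets had mixed signs.

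PRLR, the prolactin receptor, differed mainly between the array sets on its leading probe set. On 216638_s_at the smaller set read 0.97 on control 1, 1.21 on E2-BSA 1 and 1.46 on estradiol, and the 8 arrays of the larger set read from -0.42 to 0.03, with a mean of -0.21. On 6 of the 7 PRLR probe sets the smaller set lay entirely above the larger, and on 227629_at it did not. Over all members this held for 10 of 39 above and 5 of 39 below, beside 16.8% and 20.2% of all probe sets. The control probe sets for RNA integrity moved with the same split. The 5′ minus 3′ difference of ACTB was 0.65 to 0.79 in the smaller set and -0.37 to 0.00 in the larger. It comes from centred values, so it is no ratio of 5′ to 3′ signal, and only the gap between the sets can be read. Its part in the PRLR values was not tested. With E2-BSA, 216638_s_at was higher in all 4 pairs, by 0.11 to 0.36, and 243755_at lower in all 4, by -0.27 to -0.03, so the probe sets of the receptor pointed in both directions.

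The remaining comparisons with E2-BSA or estradiol held few calls. Against BSA, 2 of 39 were called higher with E2-BSA (both CISH), beside 0.121%, and 0 lower, beside 0.0311%. With G15 present, 2 of 39 were called higher (both CISH), beside 0.097%, and 0 lower, beside 0.0146%. With ICI present 0 were called, beside 0%. At an unadjusted p under 0.05 the members numbered 5, 7 and 4 in these 3 comparisons, beside 6.47%, 7.43% and 7.14% of all probe sets. Estradiol against control had 0 members called lower, beside 0.0165%, and 9 at an unadjusted p under 0.05, beside 9.2%. The tests of a changed E2-BSA response called 0 members with ICI, beside 0.011%, and 0 with G15, beside 0%. They had 4 and 1 members at an unadjusted p under 0.05, beside 7.58% and 8.01%.

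Carrier, vehicle and antagonists by themselves produced no call among the members. Of the 39 probe sets, limma called 0 for BSA, ethanol, ICI and G15 against control, beside 0.0494%, 0.287% (0.227% higher and 0.0604% lower), 0% and 0% of all probe sets. At an unadjusted p under 0.05 there were 2, 3, 5 and 5 members, which is 5.13%, 7.69%, 12.8% and 12.8% of them, beside 4.95%, 7.16%, 5.95% and 4.84% of all probe sets. These 4 comparisons share the control arrays. A size of 0.5 or more in the single-array difference from control 2 was reached by 3 members for ICI (CISH 223377_x_at and 223961_s_at, and STAT3 243213_at), beside 1.72% of all probe sets. It was reached by 1 member each for BSA (JAK1 1552611_a_at, beside 1.56%), ethanol (SOCS1 210001_s_at, beside 2.34%) and G15 (JAK1 1552611_a_at, beside 1.38%).

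**Figure D5:**
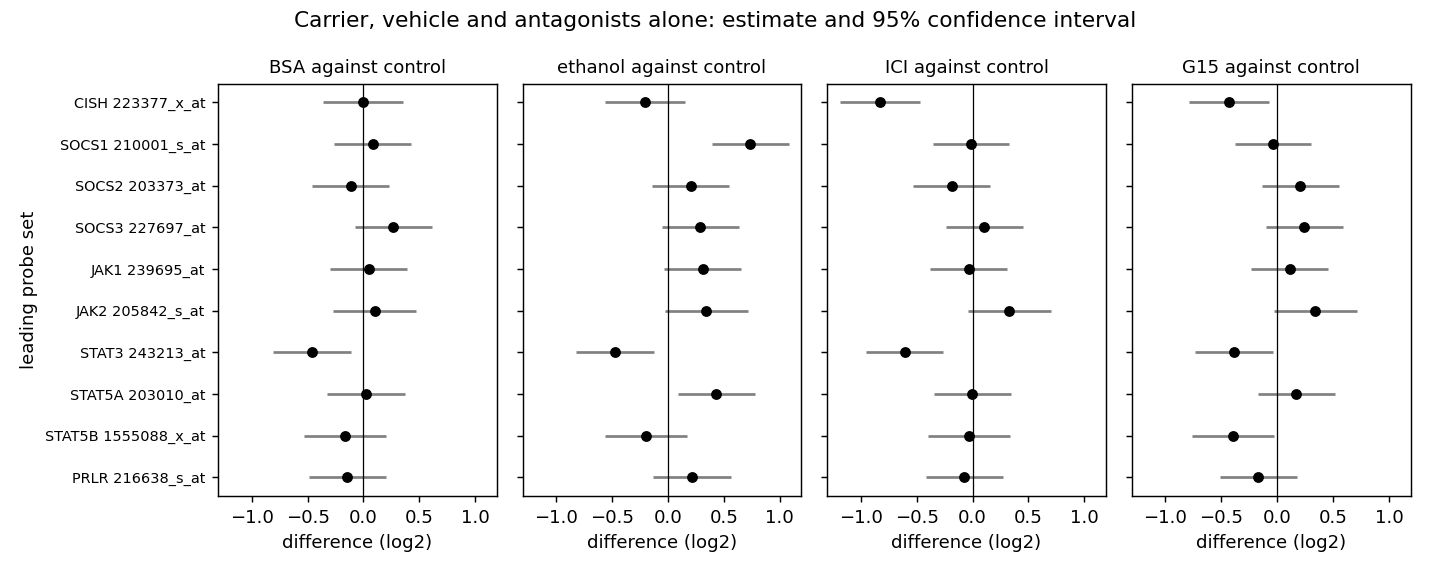
Estimated log2 difference from control, with its 95% confidence interval from the blocked limma fit, for the leading probe set of each of the 10 genes with BSA, ethanol, ICI and G15, 1 array each. The points farthest from 0 are CISH with ICI at -0.83, SOCS1 with ethanol at 0.74 and STAT3 with ICI at -0.61.

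The wider pathway was read from a list of ligands, receptors, paralogs, brakes and STAT-responsive genes, with 1 probe set per gene. For E2-BSA against control and over the backgrounds, limma called 0 of 8 measured paralogs, 0 of 17 receptors, 0 of 9 brakes (PIAS proteins, phosphatases and CBL), 0 of 10 STAT-responsive genes and 0 of 6 ligands. Their medians lay between -0.07 and 0.06, beside 0.00 for all probe sets. The 10 STAT-responsive genes ranged from -0.37 to 0.62 for E2-BSA against control. The lowest adjusted p among them was that of MCL1, a survival gene of the BCL2 family, at 0.57 ± 0.12 (SE; limma, adjusted p = 0.0626), with differences of 0.66, 0.47, 0.12 and 0.38 in the 4 pairs.

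Among the receptors, OSMR, which binds oncostatin M, was called higher with estradiol by 0.95 ± 0.16 against control (SE; limma, adjusted p = 0.0372). It read 0.27 on control 1, 0.58 on E2-BSA 1 and 1.23 on estradiol. In the same fit OSMR also lay above control, without a call, with BSA (0.55), ethanol (0.41), ICI (0.36) and G15 (0.25). Ethanol, the vehicle of estradiol, was measured only in the larger set, and its part in the estradiol difference was not tested. IL6ST, the gp130 subunit shared by interleukin-6 type cytokines, was called higher for E2-BSA against BSA, by 1.32 ± 0.16 (adjusted p = 0.00786), and for E2-BSA with G15 against G15, by 1.09 ± 0.17 (adjusted p = 0.0410). Its values were low on BSA (-0.94), ICI (-0.83), G15 (-0.82) and E2-BSA with ICI (-0.42) and close to 0 on control 2 (-0.01), and E2-BSA against control was 0.32 ± 0.12 (adjusted p = 0.398). All 3 receptor calls were lost without the block (adjusted p over 0.99) and after quantile normalization, where OSMR was at 0.52 (adjusted p over 0.99) and IL6ST at 1.59 (adjusted p = 0.187) and 1.33 (adjusted p = 0.157). These comparisons had 1 of 17 receptors called each, beside 0.167%, 0.152% and 0.112% of all probe sets in either direction.

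The genes whose pattern was most like that of CISH were found by Pearson correlation with 223377_x_at over the 11 arrays after removing the mean of each set. They were ZNF587 (r = 0.977), a zinc-finger gene, OGFOD1 (r = 0.969), an oxygenase that modifies a ribosomal protein, GATA4 (r = 0.961), a transcription factor, GEMIN4 (r = 0.956), of the SMN complex, and WDR43 (r = 0.956), a ribosome biogenesis factor. The correlations share the arrays and the treatments and are given as a description. GATA4 had differences of 1.56, 1.39, 0.58 and 1.89 in the 4 pairs, of the size of CISH, whereas ZNF587 had 0.24, 0.34, 0.35 and 0.38. Among the members, JAK1 239695_at followed CISH with r = 0.867 and 1552610_a_at with r = 0.719, while the 31 probe sets of the other 8 genes ranged from -0.54 to 0.54.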

How the data were processed

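The deposited table gives 1 log2-scale value per probe set and array, normalised and centred per probe set by the authors. The summarisation method, the software and the log base are not given in the sources used here, and the scale was inferred from the size of the values. The 62 control probe sets were left out of the tests. Probe sets were named from the platform annotation (41091 with 1 symbol, 1801 with several, 11721 with none), with symbols updated through RefSeq gene identifiers.

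limma 3.58.1 (R 4.3.3) fitted group means plus the array set to all 11 arrays, with 1 residual degree of freedom and 11.3 prior degrees of freedom. Groups measured once borrow the spread of control and E2-BSA, which limma moderates toward that of all probe sets. The effect of E2-BSA over 3 backgrounds came from a second model of the 8 arrays concerned, whose terms were E2-BSA, the antagonist and the array set (3 residual and 4.98 prior degrees of freedom). P-values were adjusted by Benjamini-Hochberg over all 54613 probe sets, and a probe set was called where the result was under 0.05. A fitted value can differ from a single-array difference, because the set effect is estimated from both replicated groups. The code of the fit was run on simulated data with independent normal noise. That run concerns the code only and lends no support to the calls.

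The members, lists and comparisons were chosen with earlier results of these data known. The named genes are the members, with the probe set of largest within-set SD leading each gene, and the called genes of the pathway list (up to 4 a group). Named as well are the 5 genes most correlated with CISH among those that passed the filter given with them. MCL1 and IRF1 were named beyond this rule after their values were seen. Same-numbered arrays of control and E2-BSA coincide with the array sets, and their differences correlated over probe sets with r = 0.857. No 2 arrays held identical values. The number of arrays limits the precision.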

Additional observations from a re-analysis of the deposited data

How the results depend on the processing

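Counts of called members depended on the block and on the scale. Without the replicate block (the array set), 0 members were called for E2-BSA against control, for its effect over 3 backgrounds, estradiol against control, E2-BSA against BSA and E2-BSA with G15 against G15, where the blocked fit called 4, 4, 1, 2 and 2. Quantile normalization gave 0 in the same 5 comparisons. The larger array set alone gave 0 over the backgrounds, and leaving out 1 array at a time gave 0 to 3. In the fit to all arrays, leaving out either array of control or E2-BSA left 0 residual degrees of freedom, so no such call could be tested. The CISH 223377_x_at change over the backgrounds was 1.25 without the block and 1.40 after quantile normalization. The JAK1 239695_at change was 0.74 and 0.85, and neither probe set was called in either setting. Of 190 alternative values for leading probe sets, 169 moved by less than the spread between pairs or the residual SD and 21 by more. Part of the 169 could not have moved by more. For E2-BSA against control, a value from 1 of the 2 pairs always lies within their SD of the mean. Both E2-BSA effects are the same without the block, because that design is balanced. The count is therefore no measure of stability. The larger array set alone for the leading probe sets, and both alternatives for called pathway genes, were added after the data were seen. The cause of these shifts was not tested.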
